A study of Homo sapiens with 2 samples.

Results

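The subunits of the mitochondrial respiratory chain and of ATP synthase were taken as a group of genes, drawn from both the nuclear and the mitochondrial genome. Members were the rows of the deposited gene table with a protein-coding transcript type and a symbol of an NDUF subunit (letters A, B, C, S or V and a number), SDHA to SDHD, a UQCR gene, CYC1, a COX4 to COX8 gene, an ATP5 gene, or MT-ND, MT-CO, MT-CYB or MT-ATP. This gave 96 of 30856 gene rows, 83 in the nuclear and 13 in the mitochondrial genome. ATP5ME lies in the stretch of chromosome 4 that the rule leaves out and is not a member. Poly(A) RNA had been sequenced from THP-1 cells, an established human acute monocytic leukaemia line, with 1 library from the untreated parental line and 1 from its Ara-C-resistant derivative. Ara-C (cytarabine) is a nucleoside analogue used against acute myeloid leukaemia. The resistant cells were raised in steps from 5 nM to 10 µM Ara-C and were taken as resistant when they doubled as fast as untreated cells. The labels give 1 resistant line, do not say whether it is a clone, and do not say whether drug was present at harvest.

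As background, complex I takes electrons from NADH and complex II from succinate, and both pass them to coenzyme Q. Complex III moves them on to cytochrome c and complex IV to oxygen, while complexes I, III and IV pump protons that drive ATP synthase, also called complex V. All subunits of complex II come from nuclear genes, whereas the other complexes join nuclear subunits, made in the cytosol and imported, to a few made inside the mitochondrion from its own genome.

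Gene counts summed to 57434972 for parental and 58285463 for resistant cells. Of the 9 markers listed for a monocytic leukaemia line, 8 were at 0.94 FPKM or more in both libraries, among them SPI1 at 64.4 and 62.3 and CD33 at 11.9 and 11.1 in parental and resistant cells (FPKM is fragments per kilobase of transcript, scaled to library size). CD14 stood at 0.50 and 0.03, and LYZ at 225 and 95.8. The T cell marker CD3E and the fibroblast marker COL1A1 stayed at or under 0.02 FPKM, and the other listed markers are not reported here. No test between conditions can be made on single libraries, and every difference below has no replicate check. Folds are ratios of count shares, each count taken relative to its library's total, resistant over parental, and intervals on them are exact 95% intervals. They cover counting error only, since reads without molecular identifiers are not independent molecules. In RNA from whole cultures, fewer cells of one kind and less RNA per cell cannot be told apart.

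Most subunit genes stood at nearly the same level in both libraries. A member counted as expressed at 1 FPKM or more in at least 1 library, which 94 of 96 met. It was called higher or lower when log2 (FPKM + 1) differed by at least 0.32 between the libraries, written below as the size rule. By that rule 2 expressed members were higher and 4 lower in resistant cells, which is 2.13% and 4.26% of them. The same rule called 9.66% of all 11388 expressed genes higher and 13.0% lower, 22.7% in all. The members' shares lay below those of all expressed genes, a difference that was not tested, and members also lie at higher levels than most genes. Among 6406 protein-coding genes at 5 FPKM or more, 81.5% stayed inside the size rule, against 93.6% of the members. The median log2 ratio of (FPKM + 1), resistant over parental, was -0.06 over the 94 members and -0.02 over all expressed genes, and 60 of the 94 lay below 0 (63.8%), as did 6065 of all 11388 expressed genes (53.3%).

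**Figure D1:**
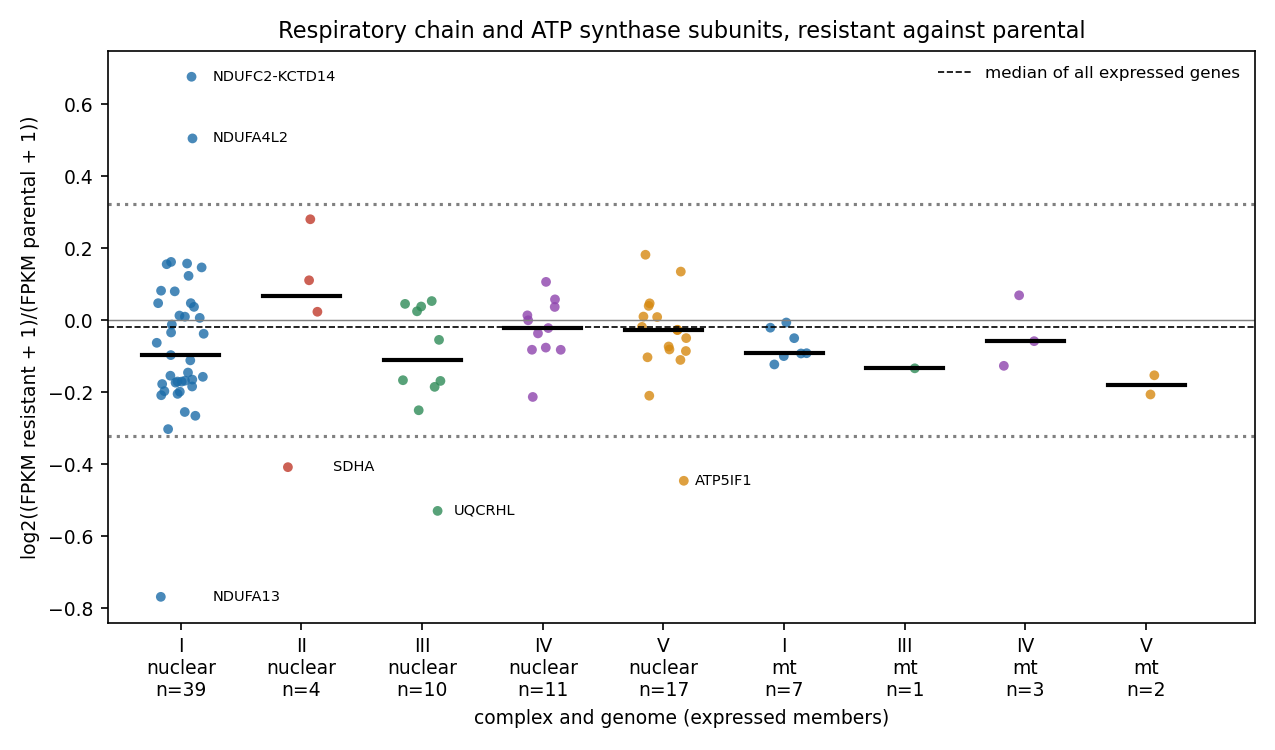
Log2 ratio of (FPKM + 1), resistant over parental, for each expressed member (points) by complex and genome (mt, mitochondrial), with the group median as a bar; dotted lines mark the size rule at 0.32 either way and the dashed line the median of all expressed genes at -0.02. NDUFC2-KCTD14 and NDUFA4L2 lie above the upper dotted line, and NDUFA13, SDHA, UQCRHL and ATP5IF1 below the lower one.

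The 2 genomes differed far more in level than in ratio. The 13 mitochondrial messenger RNAs ranged from 1797 to 10221 FPKM in parental cells, and from 1686 to 9197 FPKM in resistant ones. Expressed nuclear members ranged from 0.74 to 328 and from 1.47 to 304 FPKM, with medians of 25.3 and 25.1. Every mitochondrial messenger RNA therefore stood above every nuclear member in both libraries. Summed FPKM of the mitochondrial members was 17.2 times that of the nuclear members in parental and 16.9 times in resistant cells. The 5 nuclear members with the highest summed level were ATP5F1B, the catalytic beta subunit of ATP synthase (328 and 304 FPKM), COX8A (229 and 198), UQCRH (171 and 151), NDUFS5 (137 and 122) and CYC1 (125 and 129). Across the 94 expressed members, log2 FPKM in the libraries correlated at 0.998 (Pearson) and 0.993 (Spearman). This describes genes that share 2 libraries. The order of levels between genes rests on the transcript length behind each FPKM, which, worked back from counts, ran from 0.240 kb for MT-ATP8 to 14.6 kb for UQCRB.

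**Figure D2:**
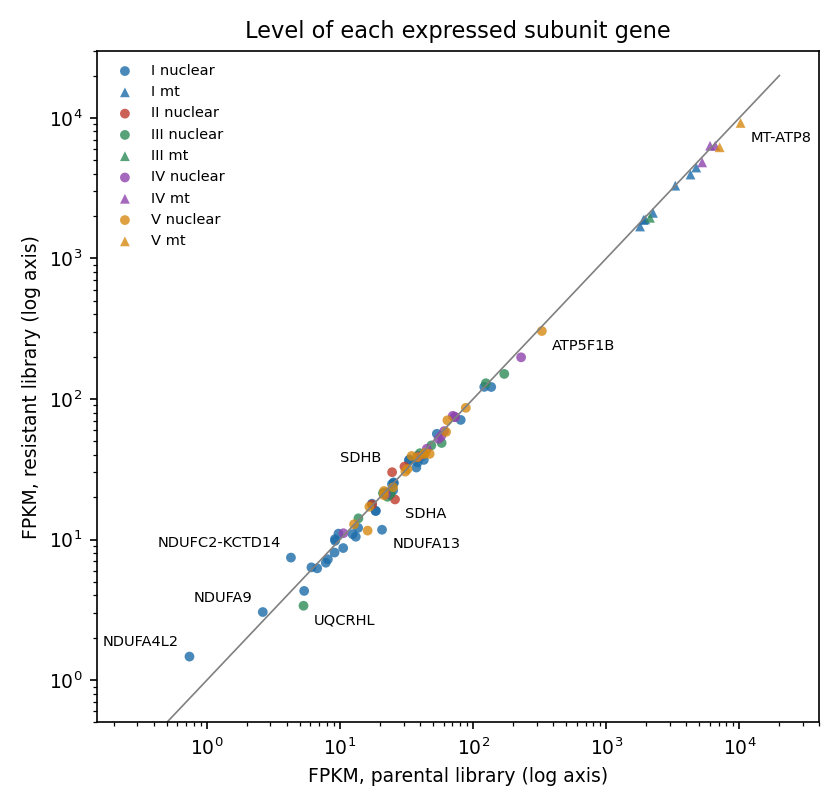
FPKM of each expressed member in parental (x) and resistant cells (y) on log axes, coloured by complex, with circles for nuclear and triangles for mitochondrial genes; the line marks equal levels. All 13 triangles lie at or above 1686 FPKM and all circles at or below 328 FPKM.

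Complex I, the largest complex, had 39 expressed nuclear members by symbol, the read-through gene NDUFC2-KCTD14 included. Their median log2 ratio was -0.10, and 24 lay below 0. The core of the matrix arm of complex I, which holds the flavin and the iron-sulphur clusters, comes from 7 nuclear genes. Of these, 5 were lower in resistant cells with a counting interval that left out 1. The interval left out 1, in either direction, for 8285 of all 11388 expressed genes. NDUFS7, which carries the last iron-sulphur cluster before coenzyme Q, went from 5.38 to 4.31 FPKM (0.805-fold, interval 0.760 to 0.852). NDUFS1, the largest subunit, went from 10.6 to 8.70 FPKM (0.826-fold, 0.800 to 0.852). NDUFS3 and NDUFS8 stood at 0.868 and 0.889 times the parental count share. NDUFV1 and NDUFV2, which form the site that accepts NADH, were at 25.3 against 25.5 FPKM and 24.6 against 24.8 FPKM, both 1.01-fold. The named NDUFS genes of the core thus lay below their parental level and the NDUFV genes at it. None of these 7 was past the size rule, and their summed counts were 0.909-fold (0.896 to 0.923).

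The 31 accessory nuclear members of complex I, NDUFA4 and NDUFA4L2 included, had a median log2 ratio of -0.06, with 19 below 0. Accessory subunits surround the core and take part in its assembly and stability. At the high end, apart from the called genes, were NDUFA10 at 9.74 and 11.0 FPKM (1.13-fold), NDUFA9 at 2.63 and 3.05 FPKM (1.16-fold, 1.09 to 1.24) and NDUFB4 at 33.2 and 37.1 FPKM (1.12-fold). At the low end were NDUFA13 and NDUFA7. By symbol letter, 7 of 8 NDUFS genes and 7 of 11 NDUFB genes lay below 0, against 8 of 14 NDUFA genes, 1 of 3 NDUFC genes and 1 of 3 NDUFV genes.

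NDUFA13, an accessory subunit also known as GRIM-19, had the lowest ratio of all 94 expressed members. Its level was 20.7 FPKM in parental and 11.7 FPKM in resistant cells, on 3739 and 2162 counts (0.570-fold, 0.540 to 0.601). The table also holds AC011448, an unnamed gene on the same strand of chromosome 19 that starts inside NDUFA13 and runs into the next gene, YJEFN3. AC011448 went the other way, from 1006 to 2605 counts (2.55-fold, 2.37 to 2.75). Summed over both rows, the locus had 4745 and 4767 counts, a fold of 0.990 (0.951 to 1.03). The lower value of NDUFA13 was therefore matched by the higher value of the overlapping row. How the authors' counting divided reads between the rows was not given in the sources used here. The RefSeq promoter window of NDUFA13 at chr19:19515975-19516254 (GRCh38.p14, plus strand, 250 bases before the start and 30 after it) is shown because the shared locus starts there, with its CCGGAAG motif, the core that ETS factors bind, in capitals.

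NDUFA13: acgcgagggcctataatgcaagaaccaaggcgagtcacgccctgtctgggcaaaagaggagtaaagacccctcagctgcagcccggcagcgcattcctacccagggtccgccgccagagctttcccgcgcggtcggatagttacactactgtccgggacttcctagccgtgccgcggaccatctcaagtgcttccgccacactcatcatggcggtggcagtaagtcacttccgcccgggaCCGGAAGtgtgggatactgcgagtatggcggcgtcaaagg

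Other complex I members also share a locus with another row. NDUFA7 was at 13.1 and 10.5 FPKM (0.799-fold, 0.734 to 0.870), just inside the rule, and AC010323, a row that overlaps it on the same strand, went from 193 to 42 counts. The sum of the pair was 0.719-fold (0.663 to 0.780), lower than NDUFA7 alone. NDUFC2-KCTD14 is a read-through gene that joins NDUFC2 to its neighbour. It was at 4.28 and 7.44 FPKM on 236 and 417 counts (1.74-fold, 1.48 to 2.05), while NDUFC2 itself was at 23.7 and 20.9 FPKM (0.885-fold, 0.844 to 0.928). Together with KCTD14 they came to 3888 and 3685 counts, 0.934-fold (0.893 to 0.977). The call on the read-through row thus rested on a small share of the counts at that locus. Leaving out copies, read-through genes and members that overlap another gene on the same strand left 24 nuclear members of complex I. Of these, 12 lay below 0, and the median was -0.0022. Overlap went by position alone, whatever the counts. NDUFS1 was left out for a row with 1 count in each library, and NDUFA10 for a row with 4 and 2. Their folds of 0.826 and 1.13 stayed the same with those rows added.

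NDUFA4L2 and NDUFA4 form a pair of related genes whose names place them in complex I, although NDUFA4 is now regarded as a complex IV subunit. Both were counted with complex I here. NDUFA4L2, known as a target of hypoxia-inducible factor, was the only member called higher that is not a read-through gene. It was at 0.74 and 1.47 FPKM on 143 and 282 counts (1.94-fold, 1.58 to 2.39), the lowest expressed level of the group. SHMT2 lies over it on the opposite strand with 12449 and 11619 counts, and its part in the value was not tested. NDUFA4 stood at 25.3 and 25.1 FPKM (0.994-fold, 0.959 to 1.03).

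Complex II, succinate dehydrogenase, links the respiratory chain to the tricarboxylic acid cycle, and its 4 genes did not move together. SDHA, the flavoprotein that oxidises succinate, was at 25.9 FPKM in parental and 19.3 FPKM in resistant cells (0.746-fold, 0.728 to 0.765). SDHB, the iron-sulphur subunit that binds SDHA, was at 24.6 and 30.1 FPKM (1.23-fold, 1.18 to 1.28), just inside the rule. Of the membrane anchors, SDHC was at 17.4 and 17.8 FPKM (1.02-fold, 0.978 to 1.06) and SDHD at 30.5 and 33.0 FPKM (1.09-fold, 1.05 to 1.13). The SDHA interval lay wholly below 1 and those of SDHB and SDHD wholly above it. The ratio of SDHA to SDHB in FPKM went from 1.05 to 0.640. Complex II had the only complex median above 0 among the 5, at 0.07, although its summed counts were 0.917-fold because SDHA has the most counts. Summed FPKM of the 4 genes went the other way, from 98.5 in parental to 100.2 in resistant cells.

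The lower SDHA value held when the counts of related rows were added. Its pseudogenes SDHAP1 and SDHAP3 had 1030 and 580 counts in parental and 601 and 463 in resistant cells, and adding all 3 SDHA pseudogene rows gave 0.737-fold (0.720 to 0.755). Adding the overlapping AC021087 row gave 0.763-fold (0.745 to 0.781). SDHA lies near the tip of chromosome 5p, where the 11 expressed neighbours available had a median log2 ratio of -0.15. Among these neighbours, EXOC3 was 0.772-fold (0.751 to 0.793) and CEP72 0.742-fold (0.693 to 0.795), values close to that of SDHA. Both were picked with their values in view, and the part of the region in the SDHA value was not tested. The promoter windows of SDHA (chr5:218070-218349, plus strand) and SDHB (chr1:17054003-17054282, minus strand), cut as above, are shown because these partners went opposite ways. Capitals in SDHA mark 4 copies of GCGCANGCG, a relaxed form of the NRF1 core that was added after this window had been seen. In SDHB they mark, in order, the ETS core CCGGAAG, the cyclic AMP response element TGACGTCA and the YY1 core AAGATGGCG.

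SDHA: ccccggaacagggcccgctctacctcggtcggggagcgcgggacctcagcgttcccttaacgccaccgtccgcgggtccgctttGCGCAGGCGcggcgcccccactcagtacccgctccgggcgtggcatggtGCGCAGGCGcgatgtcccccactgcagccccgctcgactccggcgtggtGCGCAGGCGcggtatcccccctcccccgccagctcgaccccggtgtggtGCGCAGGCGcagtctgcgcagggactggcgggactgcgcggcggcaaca

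SDHB: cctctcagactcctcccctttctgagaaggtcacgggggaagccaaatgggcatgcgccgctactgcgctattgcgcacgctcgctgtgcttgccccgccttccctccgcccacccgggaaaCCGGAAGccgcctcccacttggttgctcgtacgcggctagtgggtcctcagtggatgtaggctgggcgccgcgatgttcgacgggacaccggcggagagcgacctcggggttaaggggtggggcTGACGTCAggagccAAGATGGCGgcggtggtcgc

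With the motifs searched, the windows shared no match: SDHA held the relaxed NRF1 form and none of the others, and SDHB held 3 of the others and not that form. A match is a run of letters and not a measured site.

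Complex III had 10 expressed nuclear members, the copy UQCRHL among them, with a median log2 ratio of -0.11, and 6 lay below 0. This was the lowest of the 5 nuclear medians, but its size depended on the members counted. The 7 accessory subunits had a median of -0.05 and the 2 core ones -0.06, both without the copy. Leaving out the copy and the overlapping members together again gave -0.11. CYC1, cytochrome c1, was at 125 and 129 FPKM (1.04-fold, 1.02 to 1.06). The Rieske iron-sulphur protein UQCRFS1 was at 24.01 and 21.26 FPKM (0.888-fold, 0.852 to 0.925). These catalytic subunits thus lay on opposite sides of 1. The large matrix subunits UQCRC2 and UQCRC1 were 1.04-fold and 0.965-fold. Among the small subunits, lower values were found for UQCR10 at 58.0 and 48.63 FPKM (0.841-fold, 0.802 to 0.882), UQCRH, the hinge protein, at 171 and 151 FPKM (0.882-fold) and UQCRQ at 22.7 and 20.2 FPKM (0.889-fold). UQCRB was at 13.8 and 14.2 FPKM (1.03-fold). UQCRHL, an intronless copy of UQCRH on chromosome 1, was called lower at 5.32 and 3.38 FPKM on 774 and 500 counts (0.637-fold, 0.568 to 0.713). Its reads may be hard to tell from those of UQCRH, so its value is uncertain. MT-CYB, cytochrome b, is the only complex III subunit of the mitochondrial genome and was at 2132 and 1944 FPKM (0.914-fold, 0.908 to 0.921).

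Complex IV, cytochrome c oxidase, varied least, with 11 expressed nuclear members by symbol between -0.21 and 0.11 and a median of -0.02. None of these was called. NDUFA4 and NDUFA4L2, the latter called higher, were counted with complex I. COX8A was lowest at 229 and 198 FPKM (0.865-fold, 0.837 to 0.894), on a stretch of chromosome 11 whose expressed neighbours had a median log2 ratio of -0.17. COX7A2 was highest at 70.4 and 75.9 FPKM (1.08-fold, 1.05 to 1.11). COX4I1, the regulatory subunit that binds ATP, was at 44.9 and 44.2 FPKM (0.988-fold), COX5A at 72.5 and 74.5 FPKM (1.03-fold), COX6A1 at 60.6 and 59.1 FPKM (0.977-fold), COX6C at 55.1 and 52.0 FPKM (0.947-fold) and COX7B at 22.1 and 21.0 FPKM (0.949-fold). COX7A2L, a factor that joins complexes III and IV into supercomplexes, was at 10.6 and 11.1 FPKM (1.05-fold, 1.00 to 1.10). COX6B1, at 57.6 and 54.3 FPKM, was the form of its family in use, since COX6B2, known from testis, was at 0.12 and 0.09 FPKM on 31 and 23 counts. COX6B was the only complex IV family here with members both above and below the filter. Nuclear complex IV counts summed to 0.986-fold (0.976 to 0.996).

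The mitochondrial core of complex IV split. MT-CO1, which holds the site where oxygen is reduced, was at 6028 and 6326 FPKM (1.05-fold), the only mitochondrial messenger RNA with a ratio above 0. MT-CO2, which accepts electrons from cytochrome c, was at 5258 and 4818 FPKM (0.919-fold, 0.913 to 0.924). MT-CO3 was at 6590 and 6332 FPKM (0.963-fold). Their summed counts were 1.00-fold (0.998 to 1.00), since the higher MT-CO1 offset the other members.

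ATP synthase had 17 expressed nuclear members with a median log2 ratio of -0.03. In the rotary head, ATP5F1B was at 0.929-fold (0.917 to 0.941), the alpha subunit ATP5F1A at 43.9 and 41.4 FPKM (0.947-fold) and the gamma subunit of the central shaft, ATP5F1C, at 64.1 and 70.6 FPKM (1.10-fold, 1.07 to 1.13). The c ring that turns with the proton flow is made of one protein from 3 genes, and these differed. ATP5MC2 was at 34.6 and 39.3 FPKM (1.14-fold, 1.11 to 1.17), ATP5MC3 at 31.0 and 30.4 FPKM (0.984-fold) and ATP5MC1 at 25.04 and 23.55 FPKM (0.943-fold, 0.904 to 0.984). Summed, the c ring genes were 1.03-fold (1.01 to 1.05). The 4 genes of the peripheral stalk lay between -0.07 and 0.05 on the log2 scale, with ATP5PD highest at 21.4 and 22.2 FPKM. ATP5MF, a small membrane subunit, was at 47.2 and 40.7 FPKM (0.864-fold, 0.835 to 0.895). ATP5MGL, a copy of ATP5MG, had 0 counts in both libraries, which allows up to 3.

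ATP5IF1, the inhibitor that binds ATP synthase and blocks ATP hydrolysis, was the only complex V gene called. It was at 16.1 FPKM in parental and 11.6 FPKM in resistant cells, on 2394 and 1751 counts (0.721-fold, 0.677 to 0.767). No other gene of the table overlaps it on the same strand, and its neighbours had a median log2 ratio of -0.0027. It is no structural subunit, so among the 4 genes called lower were 1 inhibitor, 1 intronless copy, 1 row with an overlapping gene that went the other way, and SDHA.

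MT-ATP6 and MT-ATP8, the mitochondrial subunits of complex V, had the lowest ratios of the mitochondrial genome. MT-ATP6, which forms the proton channel with the c ring, was at 7117 and 6171 FPKM (0.869-fold, 0.865 to 0.874). MT-ATP8 was at 10221 and 9197 FPKM (0.902-fold, 0.895 to 0.909). The nuclear members of the same complex summed to 0.970-fold (0.964 to 0.976), above the 0.879-fold (0.876 to 0.883) of this pair. These frames overlap on one transcript by 46 bases, so reads of that stretch belong to both. The last 70 bases of MT-ATP8 and the first 70 of MT-ATP6, in the sense of the messenger RNA (GRCh38, from GENCODE transcripts), show the shared 46 bases in capitals.

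MT-ATP8: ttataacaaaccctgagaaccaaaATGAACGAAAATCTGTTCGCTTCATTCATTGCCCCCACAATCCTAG

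MT-ATP6: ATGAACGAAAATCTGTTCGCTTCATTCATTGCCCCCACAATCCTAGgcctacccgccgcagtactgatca

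MT-ND4L and MT-ND4 share 7 bases in the same way. They were at 4744 and 4429 FPKM (0.936-fold, 0.928 to 0.945) and at 4297 and 3948 FPKM (0.921-fold, 0.917 to 0.925). MT-ATP6 also shares its last position with MT-CO3, which stood at 0.963-fold. Members with overlapping frames thus did not have the same fold, and the intervals within each of these pairs did not overlap.

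The other mitochondrial subunits of complex I form its proton-pumping membrane arm, and all 7 ratios lay below 0, from 0.921-fold to 0.999-fold. MT-ND1 was at 3304 and 3290 FPKM (0.999-fold, 0.993 to 1.00) and MT-ND2 at 1904 and 1878 FPKM (0.989-fold, 0.981 to 0.996). MT-ND3 was at 1797 and 1686 FPKM (0.941-fold) and MT-ND5 at 1960 and 1894 FPKM (0.969-fold). MT-ND6, the only one encoded on the opposite strand, was at 2245 and 2107 FPKM (0.941-fold, 0.932 to 0.951), inside the range of the others. The MT-ND6 row thus did not stand apart by fold. The strand used in counting was not given, so whether its reads came from its own strand was not tested.

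In gene order after the ribosomal RNAs, the first 3 messenger RNAs, MT-ND1, MT-ND2 and MT-CO1, lay between 0.989-fold and 1.05-fold. The other 10 lay between 0.869-fold and 0.969-fold. This split was seen after the values. The ribosomal RNAs MT-RNR1 and MT-RNR2, which are not subunits, were 1.31-fold (1.29 to 1.33) and 1.35-fold (1.34 to 1.35). They are only partly kept by poly(A) selection, and the part of that step in their values was not tested. Messenger RNAs of this genome took 5.26% of all counts in parental and 5.04% in resistant cells (exact binomial intervals 5.25 to 5.26 and 5.04 to 5.05). All 37 genes of the mitochondrial genome together took 5.96% and 5.92%.

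**Figure D3:**
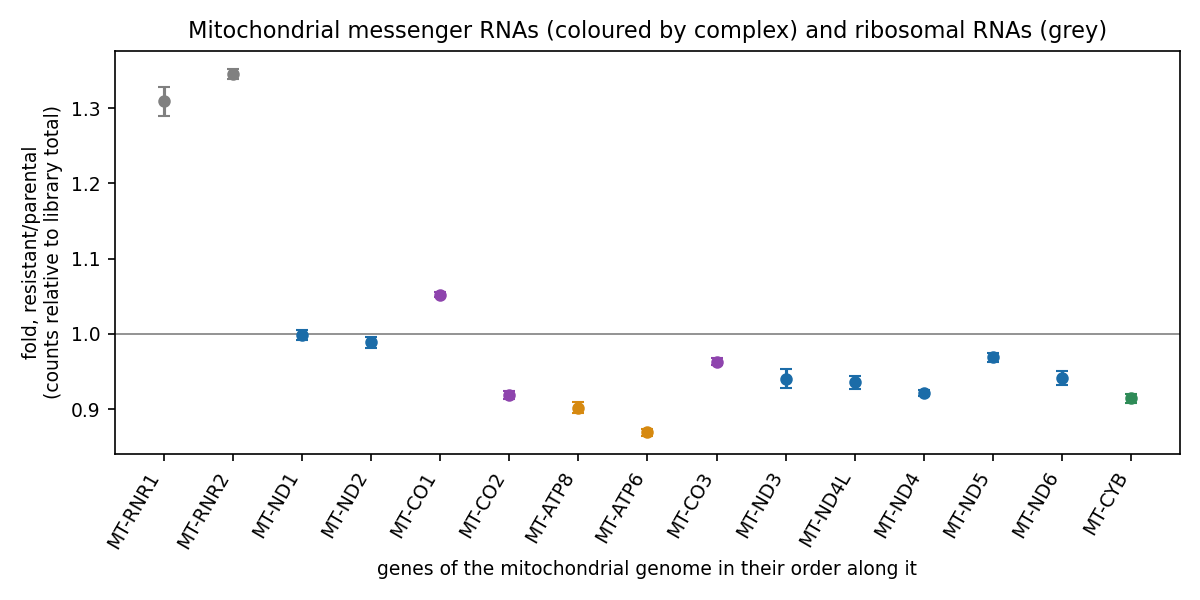
Fold of count shares, resistant over parental, for the 13 mitochondrial messenger RNAs, coloured by complex (I blue, III green, IV purple, V orange), and the 2 ribosomal RNAs (grey), in gene order; bars are 95% counting intervals. MT-CO1 at 1.05 is the highest messenger RNA and MT-ATP6 at 0.869 the lowest, with both ribosomal RNAs at 1.31 or above.

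Copies of mitochondrial genes in nuclear chromosomes took part of the reads. MTND2P28 on chromosome 1 had 69322 and 67163 counts, so that copies of MT-ND2 came to 52.4% and 50.6% of the counts of MT-ND2 itself. Adding them moved MT-ND2 from 0.989-fold to 0.977-fold. Copies of MT-ATP6 came to 13.2% and 13.3% of its counts and took its fold from 0.869 to 0.870. For MT-CO1 the copies came to 1.62% and 1.56%, and the fold stayed at 1.05. These copies therefore changed the levels of MT-ND2 and MT-ATP6 more than their folds.

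Between genomes, the median log2 ratio was -0.04 over 81 expressed nuclear members and -0.09 over 13 mitochondrial members, a difference of 0.05 that was not tested. Summed counts were 0.965-fold (0.961 to 0.969) for the nuclear and 0.959-fold (0.958 to 0.961) for the mitochondrial members, so that by this measure the genomes stood side by side. Nuclear ratios were more spread, with an SD across genes of 0.19 against 0.07. The middle 50% of nuclear members lay between -0.17 and 0.04. The counting interval left out 1 for 56 of 81 nuclear and 12 of 13 mitochondrial members, as it did for 8285 of all 11388 expressed genes, counts that reflect depth and say nothing of the spread between cultures.

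The ratios of nuclear subunit genes showed next to no correlation with those of their chromosomal neighbours. For each one, the median log2 ratio of up to 20 nearest expressed genes was set beside its own. The neighbour medians ran from -0.19 to 0.13. Across 81 genes, own and neighbour values correlated at -0.0099 (Pearson) and 0.069 (Spearman), a description over genes that share 2 libraries. SDHA and COX8A were low members with low neighbours, whereas NDUFA7 lay among neighbours with a median of 0.13.

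**Figure D4:**
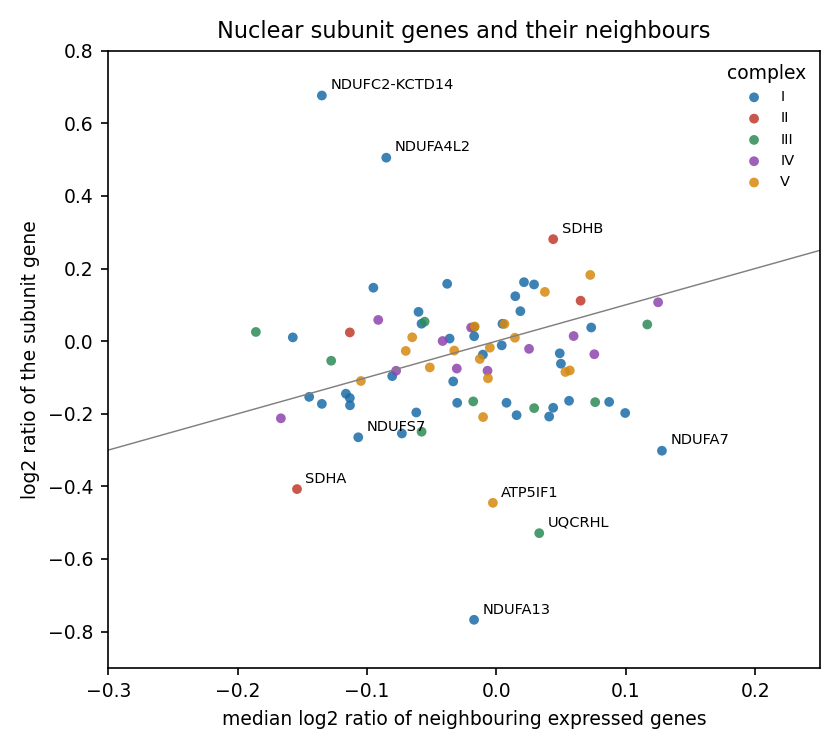
Log2 ratio of each expressed nuclear member (y) against the median log2 ratio of its neighbouring expressed genes (x), coloured by complex; the line marks equality. NDUFA13, UQCRHL and ATP5IF1 lie low with neighbours near 0, and SDHA lies low with neighbours at -0.15.

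RefSeq promoter windows of 300 bases (GRCh38.p14, 250 before and 50 after the start) were matched for 67 of 83 nuclear members, in 81 windows. Among those not matched were ATP5F1B, ATP5F1D, ATP5MC3, ATP5MF, ATP5MGL, COX6C, CYC1, NDUFA4, NDUFB5, NDUFB9, NDUFC2, NDUFS5, SDHC, UQCRB and UQCRHL. Motifs were searched on both strands. The NRF1 core GCGCATGCG, bound by a regulator of mitochondrial genes, lay in 12.3% of member windows, in 1.92% of all 35116 windows and in 3.27% of 12147 windows of expressed protein-coding genes. For the YY1 core AAGATGGCG the shares were 12.3%, 1.75% and 3.87%. The ETS core CCGGAAG, which GABPA binds, lay in 25.9%, 10.3% and 19.1%, and TGACGTCA in 4.94%, 1.85% and 2.87%. GGGCGGG, the SP1 core, lay in 32.1%, 33.1% and 51.5%. GCGCANGCG, which includes every match of the NRF1 core, lay in 25.9%, 7.52% and 13.6%. The shares of the NRF1 and YY1 cores were thus higher in member windows, and that of the SP1 core lower than in windows of expressed genes. At least 1 of the first 5 motifs lay in 63.0% of member windows and in 64.3% of windows of expressed genes. The median share of G and C letters was 60% in member windows and 65% in those of expressed genes. Windows of one gene can overlap, and no difference between these shares was tested. The factors themselves were at like levels, with NRF1 at 5.94 and 5.97 FPKM, YY1 at 19.96 and 18.53 FPKM and GABPA at 8.28 and 7.13 FPKM (0.863-fold, 0.819 to 0.910).

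Assembly factors, which build the complexes without staying in them, held a larger single difference than any subunit. Of 58 expressed factors in the lists for the 5 complexes, 5 were called higher and 3 lower, with a median of 0.03. Over all 11388 expressed genes the size rule called 9.66% higher and 13.0% lower, and no difference from these shares was tested. LYRM7, which holds the Rieske protein before it enters complex III, was at 7.41 FPKM in parental and 18.3 FPKM in resistant cells, on 3074 and 7718 counts (2.47-fold, 2.37 to 2.58). Its client UQCRFS1 was 0.888-fold. HINT1 lies over LYRM7 on the opposite strand with 5596 and 4092 counts, and its part in the value was not tested. BCS1L, which inserts the Rieske protein, was at 9.94 and 12.6 FPKM (1.27-fold, 1.20 to 1.34), just inside the rule, and UQCC2 at 10.8 and 12.8 FPKM (1.19-fold). Of the 6 complex III factors 5 lay above 0, with a median of 0.20, whereas 5277 of all 11388 expressed genes lay above 0. The nuclear members of complex III had -0.11 with the copy UQCRHL counted, and the 7 accessory ones -0.05.

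Complex IV factors gave 2 called higher and none lower of 25, with a median of 0.06. COX20, a chaperone of MT-CO2, was at 5.52 and 9.33 FPKM (1.69-fold, 1.60 to 1.80), beside 0.919-fold for MT-CO2. HNRNPU lies over it on the opposite strand with 95893 and 91983 counts. COX17, which carries copper to the complex, was at 7.40 and 10.0 FPKM (1.36-fold), and COX18, which inserts MT-CO2, at 2.84 and 2.19 FPKM (0.773-fold). Of 19 expressed complex I factors 1 was called higher, NDUFAF4 at 10.6 and 13.9 FPKM (1.31-fold, 1.23 to 1.39), and 1 lower, TMEM186 at 3.93 and 2.80 FPKM (0.715-fold, 0.624 to 0.818), with a median of -0.04. NDUFAF1 was at 7.52 and 6.17 FPKM (0.823-fold).

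Among the 4 complex II factors, SDHAF4, which binds SDHA before it joins SDHB, was called lower at 9.05 and 6.75 FPKM (0.748-fold, 0.675 to 0.828), beside 0.746-fold for SDHA. SDHAF2, which attaches the flavin to SDHA, was at 15.2 and 15.6 FPKM (1.02-fold, 0.959 to 1.10). SDHAF1 and SDHAF3, which serve SDHB, were 0.815-fold and 0.893-fold, and the median was -0.21. Of 5 ATP synthase factors DMAC2L was called higher at 1.29 and 2.12 FPKM (1.63-fold, 1.44 to 1.85) and FMC1 lower at 3.76 and 2.47 FPKM (0.661-fold, 0.555 to 0.785), with ATPAF2 at 1.17-fold and a median of -0.11. FMC1 overlaps LUC7L2 on the same strand, which had 8001 and 7739 counts, so its value is uncertain.

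**Figure D5:**
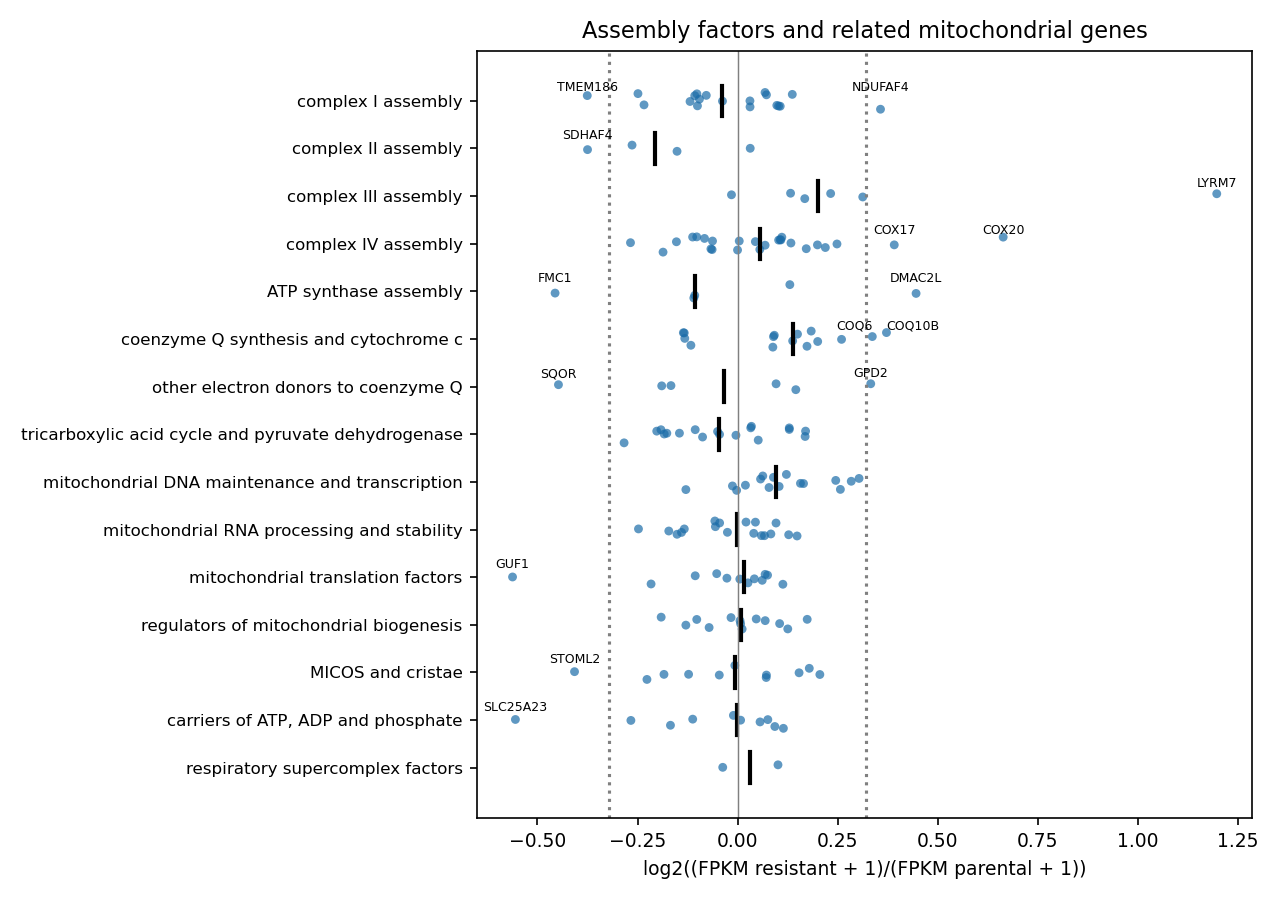
Log2 ratio of (FPKM + 1), resistant over parental, for the expressed genes of each list (points) with the list median as a bar; dotted lines mark the size rule and called genes are named. LYRM7 lies farthest to the right at 1.20, and GUF1 and SLC25A23 farthest to the left at -0.56.

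Coenzyme Q synthesis and cytochrome c gave 15 genes with a median of 0.14 and 11 above 0, as were 5277 of all 11388 expressed genes. COQ10B was at 4.30 and 5.86 FPKM (1.36-fold) and COQ6, a hydroxylase of the pathway, at 1.70 and 2.41 FPKM (1.41-fold, 1.29 to 1.55), both called higher, and PDSS2 was 1.23-fold. Of 6 expressed enzymes that feed electrons to coenzyme Q by other routes, GPD2, the mitochondrial glycerol phosphate dehydrogenase, was called higher at 13.1 and 16.8 FPKM (1.28-fold, 1.24 to 1.33). SQOR, which oxidises sulphide, was called lower at 21.0 and 15.1 FPKM (0.722-fold, 0.689 to 0.757). ETFA was 0.874-fold, and the list median was -0.04. The tricarboxylic acid cycle and pyruvate dehydrogenase list had none of 18 called and a median of -0.05, with IDH2 at 76.9 and 63.0 FPKM (0.821-fold), PDHB at 0.866-fold and MDH2 at 0.870-fold the farthest from 0.

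Genes for the upkeep and transcription of mitochondrial DNA had 13 of 16 expressed members above 0, as did 5277 of all 11388 expressed genes. None was called, and the list median was 0.10, beside -0.09 for the messenger RNAs made from that DNA. TOP1MT was at 11.8 and 14.8 FPKM (1.26-fold), TFB1M at 3.18 and 4.09 FPKM (1.29-fold, 1.18 to 1.41) and the polymerase POLRMT at 10.2 and 12.4 FPKM (1.22-fold, 1.16 to 1.27). MTERF2, below the filter, had 234 and 73 counts. Mitochondrial RNA processing had none of 18 called and a median of -0.0021, with PTCD2 (0.756-fold), FASTKD3 (0.878-fold) and TRMT10C (0.899-fold) farthest from 0. Of 12 translation factors only GUF1 was called, lower at 13.9 and 9.07 FPKM (0.656-fold, 0.625 to 0.689). It lies on chromosome 4 at 44678420, in the stretch that the rule for the subunits left out. TSFM was 0.846-fold and MTRF1L 1.09-fold, and the median was 0.02.

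Regulators of mitochondrial biogenesis had none of 13 expressed called and a median of 0.01, with GABPA, MYC (1.13-fold) and TFE3 (0.905-fold) farthest from 0. PPARGC1A, the coactivator PGC-1 alpha, had 0 and 7 counts, and ESRRB and ESRRG had 0 in both libraries. Of 11 genes that shape the cristae, STOML2 was called lower at 65.2 and 48.9 FPKM (0.752-fold, 0.727 to 0.778), PHB2 was 0.854-fold and CHCHD3 1.16-fold, and the median was -0.0068. Among 10 carriers of ATP, ADP and phosphate, SLC25A23 was called lower at 12.4 and 8.14 FPKM (0.657-fold, 0.626 to 0.690), SLC25A24 was 0.822-fold and SLC25A4 0.809-fold, and the median was -0.0013. The supercomplex factors HIGD1A and HIGD2A were 1.08-fold and 0.977-fold, with a median of 0.03. Over all 178 expressed genes of these lists, 8 were called higher (4.49%) and 7 lower (3.93%), shares below the 9.66% and 13.0% of all expressed genes, as for the subunits themselves.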

How the data were processed

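Poly(A) RNA of 1 parental and 1 Ara-C-resistant THP-1 culture was measured, and groups were taken from the sample labels. Libraries had a dUTP-marked second strand, per the labels' protocols. The deposited table gives an FPKM value and a whole-number count per gene and library. The submitters' processing notes name GRCh38, StringTie 1.3.4d, HISAT2 2.0.4, cutadapt 1.9, edgeR and DESeq2, with no role. The sources used here do not give the annotation, the strand used in counting or the treatment of reads with several matches.

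FPKM ratios used a pseudocount of 1, which understates differences of low genes, and genes with a symbol and at least 1 FPKM in a library. Counts, which the design had not assumed, gave folds of the library total with exact (Clopper-Pearson) intervals. Neighbours were 10 expressed genes on each side, members left out. Members, lists and the naming rule were chosen with earlier results of these data known. Named genes were all mitochondrial and SDH members, the 3 highest and 3 lowest nuclear members of each other complex, the 5 highest by level, members below 1 FPKM, isoform families, copies and read-through genes, and from each list the 3 farthest from 0 and those making up a count of 5 or fewer. Other genes were named after their values were seen. Of the list genes, COX7A2L was counted among the subunits, PHB1 was found as PHB, and MTRFR was not analysed here. Overlapping rows were given for only some of the list genes. Values of 1 marker and 1 member are not reported here. The steps were tested on simulated counts. Alternatives covered the pseudocount, filter, scaling, size rule, overlapping genes, neighbours and denominators. Computing used scipy 1.17.1, pandas 2.3.3 and numpy 2.4.6 in Python 3.11.15, and matplotlib 3.10.9 drew the plots.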

Additional observations from a re-analysis of the deposited data

How the results depend on the processing

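No paired analysis was possible because each group has 1 library. Of 98 alternative values, 80 were counted as unmoved. For a median this meant a move within the median half-width of the counting intervals of its single genes. For counts of members it meant up to 1.5 times, and for a share the half-width of its interval. The first of these is not the error of a median, and for some medians it is wider than the median itself. It was 0.061 for nuclear members (median -0.037) and 0.050 for nuclear complex IV (-0.021), so it cannot show that these held their size. No median that moved further changed sign. The count of members called higher, 2 as reported, was 1 with a pseudocount of 5 FPKM, with a minimum of 5 FPKM, without copies, read-through genes, the inhibitor and overlapping members, and at 1.5-fold, and 0 at 2-fold. The count called lower, 4 as reported, was 1 at 1.5-fold, 0 at 2-fold and 0 without the overlapping members, since each of the 4 is a copy, the inhibitor or a gene that overlaps another. Without them the median of the mitochondrial members was -0.070 and that of nuclear complex I -0.0022. That of complex II was 0.15, from SDHB and SDHC alone. Overlap went by position, so SDHD was left out for a row with 0 and 4 counts. Centred on all nuclear genes, the mitochondrial median was -0.073. The mitochondrial messenger RNA share was 5.44% in parental and 5.23% in resistant cells of protein-coding counts, 5.81% and 5.78% with the mitochondrial ribosomal RNAs added, and 21.0% and 19.8% of summed FPKM. It was lower in the resistant library by each of these. Depth was not the limit for most members, although NDUFA4L2 and COX6B2 rested on 282 counts or fewer and ATP5MGL had 0. What limits every value is the single library per group, which leaves the spread between cultures unknown.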
